A study of Mus musculus with 6 samples.

Results

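Platelets carry a set of surface receptors that restrain activation or act where platelets touch each other, and the transcripts of 9 genes of this kind were followed in the platelets of mice with a change in the mRNA export receptor Nxf1. The genes were chosen by name as Mpig6b, Pecam1, Ceacam1, Treml1, Cd84, Pear1, F11r, Esam and Jam3. Of these 9 genes, 8 had a row among the 9822 genes of the tables, and Jam3 was not analysed here. Mutant platelets came from males of genotype Nxf1+/C587R on the BalB/c background, in which 1 allele of Nxf1 carries the C587R change. Wild-type platelets came from littermate controls of the same background, and their libraries also belong to another deposited study. Each of the 6 libraries, 3 per genotype, was made from polyA RNA of pooled platelet suspensions that each had over 98% of flow cytometry events positive for the platelet integrin CD41, and each of 3 days yielded 1 mutant and 1 wild-type pool. The sources used here state neither ages nor the number of animals per pool, and a p-value therefore speaks to the spread among pools alone.

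Many inhibitory receptors of blood cells carry in their cytoplasmic tail an immunoreceptor tyrosine-based inhibition motif (ITIM), a short stretch around a tyrosine that, once phosphorylated by Src family kinases, recruits the phosphatases SHP-1 and SHP-2. In platelets such receptors act against signals that start at the collagen receptor GPVI and the podoplanin receptor CLEC-2. Junctional adhesion molecules and ESAM are immunoglobulin-type proteins of endothelial tight junctions that platelets also display, and they take part in contacts between platelets and dampen integrin signalling or thrombus growth in mice. Platelets have no nucleus, so their mRNA is what the megakaryocyte packed into them.

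Several of these receptors carry an ITIM or a related motif, so the coding bases of each tail motif are shown. They were read from the longest coding transcript of each gene in GENCODE for GRCm38, the assembly of mm10, from the sense strand. Capitals mark 6 codons that match the ITIM pattern (serine, isoleucine, leucine or valine, any residue, tyrosine, any pair of residues, then isoleucine, leucine or valine) or the related immunoreceptor tyrosine-based switch motif (ITSM), which begins with threonine. Only the last 130 codons were searched. F11r, Esam and Pear1 had no match in that window, which says only that these patterns are not there.
Mpig6b ITIM, codons 210 to 215 of 242, minus strand, chr17:35064407-35064691 with an intron inside: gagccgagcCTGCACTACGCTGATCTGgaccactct
Mpig6b ITSM, codons 236 to 241, chr17:35064335-35064364: gatgcctccACTGTCTATGCGGTTGTAgta
Pecam1 ITIM, codons 677 to 682 of 732, minus strand, chr11:106679568-106679603: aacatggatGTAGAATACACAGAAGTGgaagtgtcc
Pecam1 ITSM, codons 700 to 705, chr11:106671749-106671784: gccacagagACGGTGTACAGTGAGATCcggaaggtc
Ceacam1 ITIM, codons 486 to 491 of 521, minus strand, chr7:25463865-25463900: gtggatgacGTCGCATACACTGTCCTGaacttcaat
Ceacam1 ITSM, codons 513 to 518, chr7:25463784-25463819: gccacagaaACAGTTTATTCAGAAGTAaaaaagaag
Treml1 ITIM, codons 289 to 294 of 322, plus strand, chr17:48366803-48366838: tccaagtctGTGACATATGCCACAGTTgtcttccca
Cd84 first ITSM, codons 263 to 268 of 329, plus strand, chr1:171884596-171884631: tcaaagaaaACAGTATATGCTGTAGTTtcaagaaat
Cd84 second ITSM, codons 298 to 303, chr1:171885592-171885627: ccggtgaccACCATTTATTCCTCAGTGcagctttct

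The motif is not in every transcript of these genes. Of 7 coding Ceacam1 transcripts in the basic annotation set 2 held the ITIM pattern, the others lacking it in that window. The pattern was in 1 of 2 coding Mpig6b transcripts, 5 of 5 of Pecam1 and 2 of 3 of Treml1, and the ITSM pattern was in 3 of 4 of Cd84, while 1 of those 4 held the ITIM pattern. The deposited values are counts per gene, so long and short forms of CEACAM1 could not be told apart.

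The deposited tables gave 25189231 to 29421549 counts per library, and the receptors were sampled well, with 1367 counts in the sparsest case (Pear1 in wild-type day 2), a counting error of 2.7%. Levels are given as CPM, counts scaled to a common library total, after scaling by the trimmed mean of M-values (TMM), which sets libraries on a common footing by assuming that most genes do not differ. The platelet identity of the libraries was seen in the defining markers, all 12 of which had rows and which summed to 43762 to 48418 CPM in mutant pools and 34648 to 41918 CPM in wild-type libraries. Erythroid markers summed to 3972 to 31520 CPM in mutant pools and 4308 to 35720 CPM in wild-type libraries. The day 1 libraries of both genotypes held the most. The globin gene Hba-a1 alone had 19107 CPM in mutant day 1 and 21556 CPM in wild-type day 1, against 2704 to 3011 CPM in the libraries of the later days. TMM factors were 0.912 to 1.05 in mutant and 0.955 to 1.19 in wild-type libraries, with the highest in wild-type day 3. No 2 libraries of a genotype agreed within sampling noise.

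Of the 8 receptor transcripts, 3 were higher in mutant platelets, those of Ceacam1, Pear1 and Cd84, and 0 were lower (edgeR quasi-likelihood test, called at a Benjamini-Hochberg adjusted p under 0.05 over all 9822 genes). DESeq2 and limma-voom also called 3 higher and 0 lower. At an unadjusted p under 0.05 the edgeR counts were 6 higher and 0 lower, beside 1818 and 1402 of all 9822 genes. At the adjusted threshold, 12.9% of all genes were called higher and 9.16% lower, 22.1% in either direction. All 8 receptors had a mean above 50 CPM, and among the 1213 genes of that level 37.1% were called higher and 11% lower, so a share of 3 in 8 is near that of other abundant transcripts. The median log2 fold change was 0.29 over the 8 receptors, 0.21 over genes of at least 50 CPM and -0.04 over all genes. The 12 platelet markers, which include Treml1, had a median of 0.30, with 5 higher and 2 lower. The lower ones were Gp1ba (log2 fold change -1.08, adjusted p = 7.28e-07 by edgeR) and Gp9 (-0.40, adjusted p = 0.0186 by edgeR). When the preparation day entered as a block, 7 of the 8 receptors were higher and 0 lower. Of all genes, 22% were then higher and 18% lower, 40% in either direction, and of genes of at least 50 CPM 55.7% were higher.

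**Figure D1:**
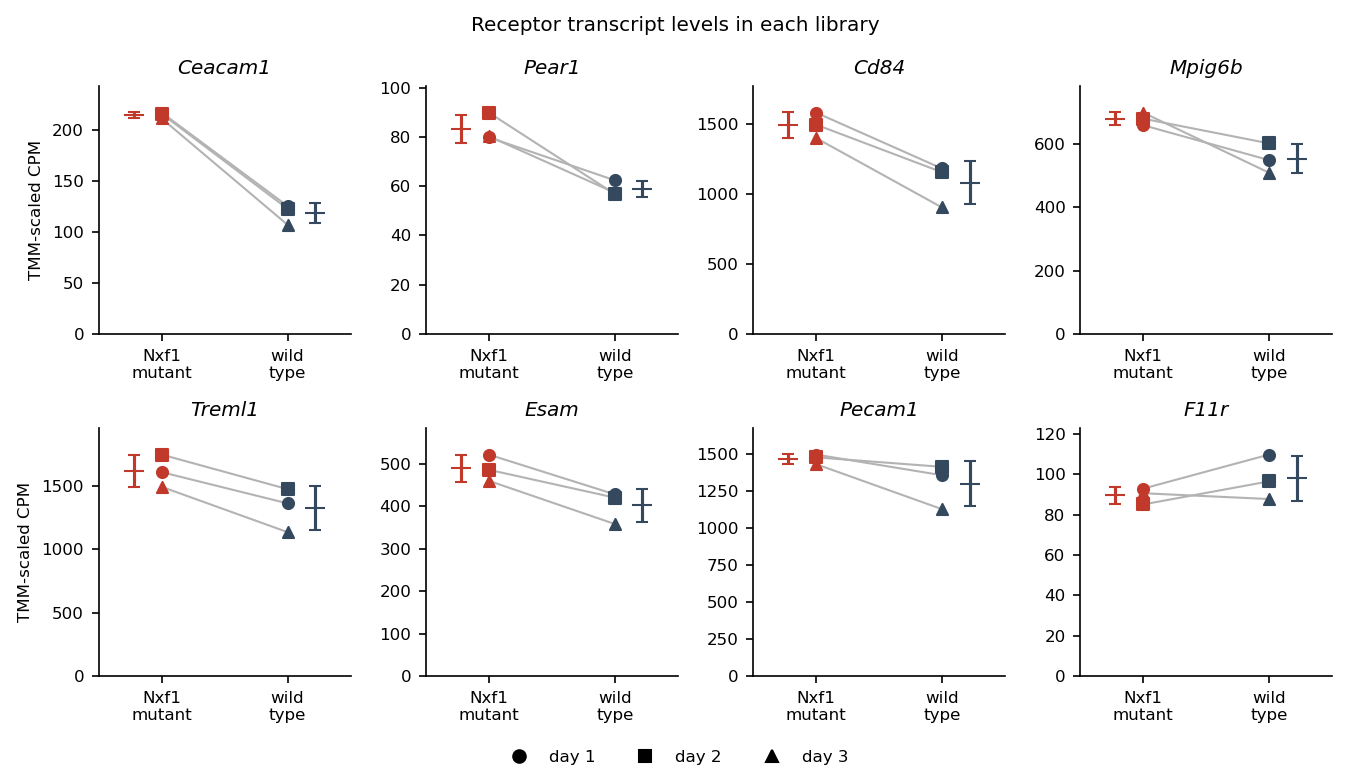
TMM-scaled CPM of each receptor transcript in the 3 mutant libraries (red, left) and 3 wild-type libraries (blue, right). Symbols mark the preparation day, grey lines join the libraries of 1 day, and the bars at the side give mean and SD. Ceacam1 shows the widest gap as a ratio, at 215 ± 3.05 CPM in mutant pools and 119 ± 9.94 CPM in wild-type pools, and F11r is the gene whose groups overlap.

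**Figure D2:**
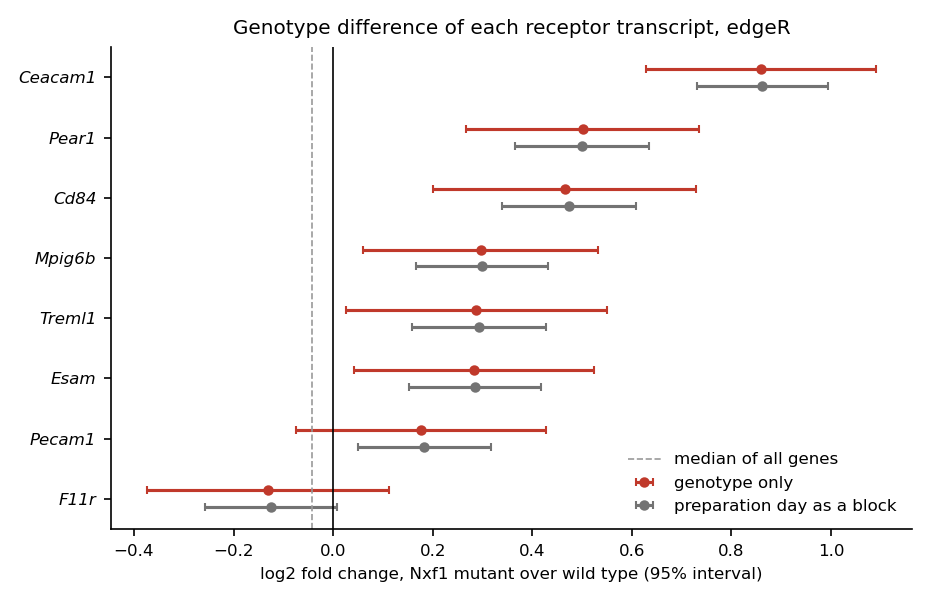
Log2 fold change of each receptor transcript, Nxf1 mutant over wild type, with its 95% interval, from the edgeR fit with genotype only (red) and with preparation day as a block (grey). The dashed line is the median of all genes (-0.04). Ceacam1, Pear1 and Cd84 lie farthest to the right, and F11r is the only one of the 8 below 0.

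Among the receptors with an ITIM, Ceacam1 (Entrez 26365, chromosome 7, 25461702 to 25477647, minus strand, mm10) showed the largest difference. CEACAM1 is a carcinoembryonic antigen family adhesion protein that limits GPVI signalling in mouse platelets. Ceacam1 had 217, 216 and 212 CPM in mutant platelets on days 1, 2 and 3, against 126, 123 and 107 CPM in wild-type pools. Every mutant library lay far above every wild-type library, and the mutant libraries lay close together. Mutant over wild type, this was 0.86 ± 0.11 as log2 fold change (SE, adjusted p = 1.37e-05 by edgeR), an 81.4% higher level. It was 0.79, 0.81 and 0.98 within days 1, 2 and 3, and it was called in all 21 alternatives, with values of 0.70 to 0.87. Its mouse paralogue Ceacam2, which also encodes an inhibitory platelet receptor, lies in the same family of near-identical genes, so reads of both genes may have been split between them and both values are uncertain. Ceacam2 had 8.59 ± 0.729 CPM in mutant pools and 4.93 ± 0.565 CPM in wild-type pools (SD, n = 3 each), 0.80 ± 0.15 as log2 fold change (SE, adjusted p = 0.000721 by edgeR). Its call was lost without day 2 (adjusted p = 0.051 by edgeR).

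Mpig6b (Entrez 106722, chromosome 17, 35062693 to 35066848, minus strand) encodes G6b-B, an ITIM receptor of megakaryocytes and platelets that binds heparan sulfate and whose loss in mice causes low counts of large platelets. Mpig6b had 659.5, 680.2 and 699 CPM in mutant platelets on days 1, 2 and 3, against 549, 602 and 509 CPM in wild-type pools. The groups did not overlap, and the gap between the highest wild-type and the lowest mutant library was small. The log2 difference in Mpig6b was 0.30 ± 0.11 (SE, adjusted p = 0.0683 by edgeR) and did not pass, with a 95% interval of 0.06 to 0.53. It passed once day was blocked (adjusted p = 5.2e-05 by edgeR and 2.54e-06 by DESeq2) and without day 3 (adjusted p = 0.0288 by edgeR), and did not with the block once day 1 was left out (adjusted p = 0.107 by edgeR). With the deposited totals in place of TMM the wild-type day 3 library (604 CPM) lay above the mutant day 1 library (601 CPM). Mpig6b overlaps G6bos, a noncoding gene with a row of its own, and the library kit does not mark strand, so reads of the shared stretch could belong to either gene. The same holds where Ceacam1 lies inside the noncoding gene 4732471J01Rik of the opposite strand, and where Cd84 overlaps the noncoding gene Gm51686, neither of which has a row.

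Pecam1 (Entrez 18613, chromosome 11, 106654213 to 106715281, minus strand) encodes PECAM-1, the ITIM receptor CD31 of endothelial cells, leukocytes and platelets that binds itself across cell contacts. Pecam1 had 1495, 1477 and 1431 CPM in mutant platelets on days 1, 2 and 3, against 1356, 1412 and 1127 CPM in wild-type pools. The groups did not overlap, but wild-type day 2 came close to mutant day 3, and wild-type day 3 lay well below the rest. The log2 difference in Pecam1 was 0.18 ± 0.12 (SE, adjusted p = 0.334 by edgeR), with a 95% interval of -0.07 to 0.43, and it did not pass. It passed with the block (adjusted p = 0.0214 by edgeR and 0.00655 by DESeq2) and not with the block without day 1 (adjusted p = 0.408 by edgeR). Its log2 fold change was 0.08 without wild-type day 3 and 0.02 when scaled on genes of at least 10 CPM.

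Treml1 (Entrez 71326, chromosome 17, 48359916 to 48367176, plus strand) encodes TLT-1, a receptor of the alpha granule membrane that reaches the surface on activation, binds fibrinogen and, unlike most ITIM receptors, promotes aggregation. Treml1 had 1609, 1747 and 1493 CPM in mutant platelets on days 1, 2 and 3, against 1362, 1474 and 1135 CPM in wild-type pools. The day 2 pool was highest and the day 3 pool lowest in both genotypes, and mutant day 3 lay just above wild-type day 2. The change in Treml1 on the log2 scale was 0.29 ± 0.13 (SE, adjusted p = 0.112 by edgeR), with a 95% interval of 0.03 to 0.55. It passed with the block (adjusted p = 9.05e-05 by edgeR), with the block by DESeq2 (adjusted p = 9.97e-08), with library size alone (adjusted p = 0.0446 by edgeR) and without day 3 (adjusted p = 0.0143 by edgeR), and not with the block without day 1 (adjusted p = 0.126 by edgeR).

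Cd84 (Entrez 12523, chromosome 1, 171839697 to 171890718, plus strand), with ITSMs in its tail, belongs to the SLAM family, whose members bind themselves or each other between blood cells. Cd84 had 1579, 1493 and 1398 CPM in mutant platelets on days 1, 2 and 3, against 1180.3, 1154 and 903 CPM in wild-type pools. All mutant libraries lay above all wild-type libraries, and day 3 was lowest in both genotypes. On the log2 scale the fold change of Cd84 was 0.47 ± 0.13 (SE, adjusted p = 0.011 by edgeR), a 38.1% higher level, and 0.42, 0.37 and 0.63 within days 1, 2 and 3. The call was lost without mutant day 1 (adjusted p = 0.134 by edgeR), mutant day 2 (0.105), the whole of day 1 (0.15) or the whole of day 2 (0.145), with log2 fold changes of 0.38, 0.42, 0.45 and 0.47. Blocked by day, Cd84 passed also without day 1 (adjusted p = 0.00583 by edgeR).

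Pear1 (Entrez 73182, chromosome 3, 87749097 to 87769110, minus strand) encodes a receptor with epidermal growth factor-like repeats that is phosphorylated when platelets touch each other and signals through phosphoinositide 3-kinase. Pear1 had 79.8, 89.8 and 80.3 CPM in mutant platelets on days 1, 2 and 3, against 62.4, 56.8 and 57.4 CPM in wild-type pools. The groups did not overlap, and the day 2 pools were the highest mutant and the lowest wild-type library. The log2 fold change of Pear1 was 0.50 ± 0.11 (SE, adjusted p = 0.00276 by edgeR), a 41.5% higher level, and 0.36, 0.66 and 0.48 within days 1, 2 and 3. The call was lost without mutant day 2 (log2 fold change 0.40, adjusted p = 0.0761 by edgeR) and without the whole of day 2 (0.38, adjusted p = 0.224 by edgeR).

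Among the junctional receptors, Esam (Entrez 69524, chromosome 9, 37528089 to 37538319, plus strand) encodes endothelial cell-selective adhesion molecule, whose absence in mice gives larger thrombi. Esam had 521, 485 and 459 CPM in mutant platelets on days 1, 2 and 3, against 428, 419.8 and 358 CPM in wild-type pools. Within both genotypes the level was highest on day 1 and lowest on day 3, and the groups did not overlap. The log2 difference in Esam was 0.28 ± 0.12 (SE, adjusted p = 0.0888 by edgeR), with a 95% interval of 0.04 to 0.52. It passed with the block (adjusted p = 0.000114 by edgeR), with the block by DESeq2 (adjusted p = 6.52e-07), with library size alone (adjusted p = 0.0287 by edgeR) and without day 3 (adjusted p = 0.0139 by edgeR), and not with the block without day 1 (adjusted p = 0.148 by edgeR).

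F11r (Entrez 16456, chromosome 1, 171437561 to 171464593, plus strand) encodes JAM-A, a junctional adhesion molecule that in mouse platelets holds back outside-in signalling of the fibrinogen receptor through the kinase Csk. F11r had 92.9, 85.0 and 90.6 CPM in mutant platelets on days 1, 2 and 3, against 109.8, 96.5 and 87.7 CPM in wild-type pools. The groups overlapped, and mutant day 3 lay above wild-type day 3, while on days 1 and 2 the mutant library was the lower. The estimate for F11r on the log2 scale was -0.13 ± 0.12 (SE, adjusted p = 0.479 by edgeR), with a 95% interval of -0.37 to 0.11, and it did not pass with the block either (adjusted p = 0.132 by edgeR). When scaled on genes of at least 10 CPM it was -0.29 and passed (adjusted p = 0.0121 by edgeR).

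By day, 7 of the 8 receptors were higher in the mutant on all 3 days with TMM scaling, which held for 30.1% of all genes. The libraries of the genotypes did not overlap, mutant above wild type, for the same 7, and for 20.4% of all genes, with 15.9% the other way. The all-gene shares in this paragraph were not taken among genes of at least 50 CPM, the level of all 8 receptors. For 7 of the 8 the daily log2 ratio was largest on day 3, the exception being Pear1, and 6 of the 8 had their lowest level in wild-type day 3, the library with the highest TMM factor. With deposited totals in place of TMM, 6 of the 8 did not overlap, mutant above wild type, as was so for 16.5% of all genes. On that scale the day 3 ratio was the largest for 4 of the 8. Those were Mpig6b (0.19, 0.18 and 0.28 on days 1, 2 and 3), Pecam1 (0.07, 0.07 and 0.17), Cd84 (0.35, 0.38 and 0.46) and F11r (-0.31, -0.17 and -0.13). The daily ratios of Esam were 0.21, 0.22 and 0.19, those of Treml1 0.17, 0.25 and 0.22, those of Ceacam1 0.72, 0.82 and 0.81, and those of Pear1 0.28, 0.67 and 0.31. The part of the scaling in the day 3 values was not tested beyond this.

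**Figure D3:**
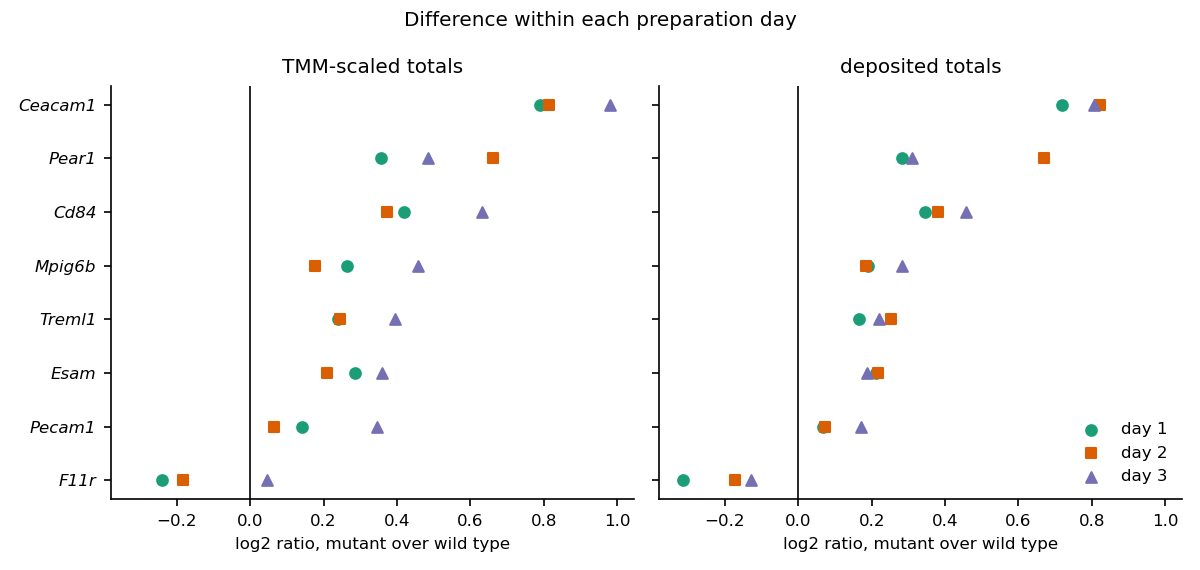
Log2 ratio of mutant over wild-type level within each preparation day, for each receptor transcript, with TMM-scaled totals (left) and deposited totals (right). With TMM the day 3 ratio is the largest for 7 of 8 receptors, and with deposited totals all 3 ratios of F11r lie below 0 (-0.31, -0.17 and -0.13).

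Levels of different receptors were compared per kilobase of the deposited gene length. Treml1 was the most abundant in both genotypes, at 1325 ± 104 CPM per kb in mutant pools and 1085 ± 142 CPM per kb in wild-type pools (SD, n = 3 each), rank 65 and rank 71 among 9822 genes. Pecam1 followed with 444 ± 10.03 CPM per kb in mutant pools and 393 ± 45.7 CPM per kb in wild-type pools. Mpig6b had 285 ± 8.37 CPM per kb in mutant pools and 232 ± 19.5 CPM per kb in wild-type pools. Next came Esam and Cd84, and within mutant platelets their libraries overlapped, at 248 to 281 CPM per kb for Esam and 224 to 253 CPM per kb for Cd84. In wild-type platelets they did not, at 193 to 231 CPM per kb for Esam and 144 to 189 CPM per kb for Cd84, while Mpig6b and Esam overlapped in both genotypes.

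The order changed between genotypes for 1 neighbouring pair. Ceacam1 lay above F11r in mutant platelets, at 57.6 ± 0.817 against 36.1 ± 1.63 CPM per kb for F11r, and below it in wild-type platelets, at 31.8 ± 2.66 against 39.5 ± 4.47 CPM per kb for F11r (SD, n = 3 each), with no overlap of libraries in either genotype. Pear1 was the least abundant, at 18.5 ± 1.26 CPM per kb in mutant pools and 13.1 ± 0.68 CPM per kb in wild-type pools, and yet stood above 85.1% of all genes.

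**Figure D4:**
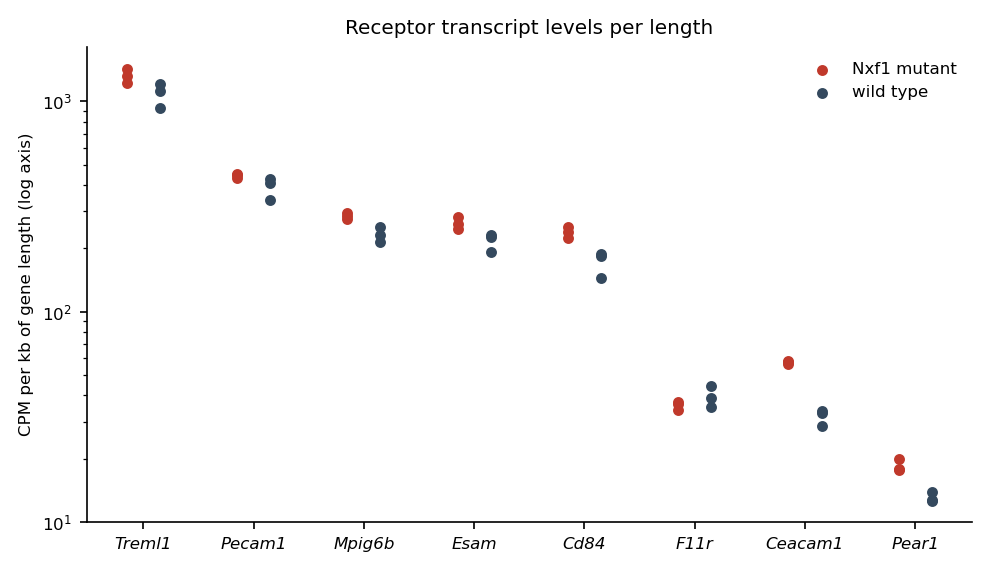
CPM per kb of gene length (log axis) of each receptor transcript in the 3 mutant libraries (red, left) and the 3 wild-type libraries (blue, right), ordered by the wild-type mean. Treml1 stands highest at 1325 and 1085 CPM per kb, and Ceacam1 is above F11r in mutant and below it in wild-type libraries.

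The 3 receptors that rose are shown with the 250 bases before 1 annotated start of each in RefSeq (GRCm38.p6). In these the GATA-type letters AGATAA and TGATAA, the ETS-type letters AGGAAG and CGGAAG and the RUNX-type letters TGTGGT were sought on both strands. Capitals mark matches.
Ceacam1, minus strand, chr7:25477626-25477875: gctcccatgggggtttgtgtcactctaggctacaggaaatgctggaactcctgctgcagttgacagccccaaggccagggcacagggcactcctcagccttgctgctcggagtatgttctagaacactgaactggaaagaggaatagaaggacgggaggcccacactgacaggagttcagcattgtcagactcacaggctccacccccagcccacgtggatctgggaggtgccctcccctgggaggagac
Pear1, minus strand, chr3:87768954-87769203: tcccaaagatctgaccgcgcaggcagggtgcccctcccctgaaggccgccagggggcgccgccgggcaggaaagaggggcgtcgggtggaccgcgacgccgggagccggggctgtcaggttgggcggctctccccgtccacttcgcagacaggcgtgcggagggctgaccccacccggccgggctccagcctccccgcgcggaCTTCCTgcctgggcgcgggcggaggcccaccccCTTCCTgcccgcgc
Cd84, plus strand, chr1:171839447-171839696: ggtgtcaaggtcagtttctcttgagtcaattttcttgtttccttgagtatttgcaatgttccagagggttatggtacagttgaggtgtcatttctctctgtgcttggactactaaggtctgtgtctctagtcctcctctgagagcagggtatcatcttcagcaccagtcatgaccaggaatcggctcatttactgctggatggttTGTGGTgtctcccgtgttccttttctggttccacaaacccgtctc

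These windows did not share a motif. Pear1 held AGGAAG on the opposite strand at 47 and 14 bases before that start, letters present in 29.5% of the 32851 windows searched. Both matches lie inside the annotated gene, which reaches to 87769110. Part of the Ceacam1 window also lies inside its gene, which reaches to 25477647. Cd84 held TGTGGT at 45 bases, as 14% of windows did, and Ceacam1 held none of the 5. AGATAA was in 9.99%, TGATAA in 7.94% and CGGAAG in 13.6% of windows. Such matches describe letters and are not binding sites.

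A list of 24 signalling genes, with adaptors, phosphatases and kinases, was followed beside the ITIM receptors. It was not limited to proteins that such receptors recruit and included the receptor phosphatase gene Ptprj. Of these 24 genes 22 had a row, and 5 were higher and 0 lower in mutant platelets. DESeq2 and limma-voom gave the same counts for the list. Over all genes 12.9% were higher and 9.16% lower. At an unadjusted p under 0.05 there were 7 higher and 0 lower by edgeR, beside 1818 and 1402 of 9822 genes. With the block there were 9 higher and 0 lower, beside 22% and 18% of all genes. The list had a median log2 fold change of 0.15, beside -0.04 for all genes. Ptpn11, which encodes SHP-2, rose to 1192 ± 77.5 CPM in mutant platelets, against 706 ± 90.4 CPM in wild-type pools (SD, n = 3 each), 0.76 ± 0.12 as log2 fold change (SE, adjusted p = 0.00018 by edgeR), which was called in all 21 alternatives. Ptpn6, which encodes SHP-1, had 24.6 ± 5.49 CPM in mutant pools and 27.5 ± 9.35 CPM in wild-type pools, with -0.16 ± 0.26 as log2 fold change (SE, adjusted p = 0.719 by edgeR) and 0.14 without wild-type day 3.

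Csk, the kinase that switches Src family kinases off, had 61.1 ± 3.5 CPM in mutant pools and 42.8 ± 3.64 CPM in wild-type pools (log2 fold change 0.51, adjusted p = 0.00269 by edgeR). The adaptor gene Dok1 (0.59, adjusted p = 0.00131), the inositol phosphatase gene Inppl1, for SHIP2 (0.58, adjusted p = 0.00154), and the receptor phosphatase gene Ptprj, for CD148 (0.64, adjusted p = 0.00292 by edgeR), were also higher. Calls were lost without day 1 for Csk, Dok1 and Inppl1 (adjusted p = 0.0809, 0.0576 and 0.055 by edgeR), without day 2 for Csk and Inppl1 (0.113 and 0.0794) and without day 3 for Ptprj (0.358). Csk also missed with library size alone (adjusted p = 0.0698 by edgeR) and among genes of at least 10 CPM (0.0508). Inpp5d, for SHIP1, stood at 0.22 on the log2 scale (adjusted p = 0.171 by edgeR), and the block let it pass (0.00384 by edgeR and 0.000859 by DESeq2). The list had 2 members higher without day 1 and 3 without day 2. Fewer of all genes were called higher in both of these fits too, with 485 without day 2 against 1266 in the full fit. Sh2d1b1, an adaptor that binds the switch motif, had no row.

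Of 25 other genes listed as inhibitory receptors, 13 had a row. By edgeR, DESeq2 and limma-voom 1 was higher, Ceacam2 as given above, and 0 were lower. At an unadjusted p under 0.05 by edgeR, 1 was higher and 1 lower, beside 1818 and 1402 of 9822 genes. The median log2 fold change was 0.05, and at the adjusted threshold 12.9% of all genes were higher and 9.16% lower. The most abundant of the listed genes was Treml2, a relative of Treml1 whose inhibitory role was not examined here. Treml2 had 1995 ± 102 CPM in mutant pools and 1808 ± 160 CPM in wild-type pools (log2 fold change 0.14, adjusted p = 0.442 by edgeR). It passed when blocked by DESeq2 alone (0.0148). Of 8 other SLAM family genes 5 had a row, and 0 passed in either direction by edgeR, DESeq2 and limma-voom, with 1 higher and 0 lower at an unadjusted p under 0.05 by edgeR. That gene was Slamf1, at 2029 ± 62.5 CPM in mutant pools and 1652 ± 139 CPM in wild-type pools (log2 fold change 0.30, adjusted p = 0.076 by edgeR), and it passed with the block (6.6e-05 by edgeR). Slamf1 passed too with library size alone (adjusted p = 0.0255 by edgeR), among genes of at least 10 CPM (0.0493) and without day 3 (0.00785).

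Of 51 listed junction partners, contact proteins and the scaffold proteins that bind them, 23 had a row. In this list 2 were higher and 2 lower, where 12.9% of all genes were higher and 9.16% lower. With the block 4 were higher and 5 lower, beside 22% and 18% of all genes. The median log2 fold change of the list was 0.04. Ctnna1, for the actin-binding alpha-catenin, rose to 242 ± 15.4 CPM in mutant platelets, against 122 ± 11.5 CPM in wild-type pools (log2 fold change 0.99, adjusted p = 4e-06 by edgeR). The contact-signalling kinase gene Ephb2 fell to 69.2 ± 7.25 CPM in mutant platelets, against 134 ± 19.2 CPM in wild-type pools (-0.95, adjusted p = 2.37e-05 by edgeR), while Efnb1, which encodes a ligand of this kinase family, had 1.13 ± 0.435 CPM in mutant pools and 0.373 ± 0.0372 CPM in wild-type pools (1.59, adjusted p = 0.00258 by edgeR). Its wild-type libraries, with 9, 10 and 11 counts, all lay under the 0.5 CPM that every listed gene exceeds in 3 libraries. Efnb1 is therefore in the tables only through the mutant libraries where it was high, and its difference carries no weight. Efnb1 was 1 of the 2 counted as higher in this list, the other being Ctnna1. Rap1a, a small GTPase gene, was lower (-0.41, adjusted p = 0.0252 by edgeR), a call lost without mutant day 2 or 3 (0.0697 and 0.108), wild-type day 1 or 2 (0.0794 and 0.0661), day 1 (0.0642) or day 2 (0.207). Tjp1, for the junction scaffold ZO-1, had 0.94 ± 0.144 CPM in mutant pools and 0.797 ± 0.444 CPM in wild-type pools (0.26, adjusted p = 0.639 by edgeR).

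Of 14 listed genes of the activating pathway that the inhibitory receptors oppose, all had a row. By edgeR, DESeq2 and limma-voom 8 were higher, 0 lower and 6 did not pass. At the same threshold by edgeR 12.9% of all genes and 37.1% of genes of at least 50 CPM were higher. Unadjusted, at p under 0.05 by edgeR, 10 of the list were higher and 0 lower, beside 1818 and 1402 of 9822 genes. With the block 11 of the list were higher and 0 lower, beside 22% and 18% of all genes. Of genes of at least 50 CPM 55.7% were then higher. The median log2 fold change of the list was 0.41, and Btk (-0.02, adjusted p = 0.902) and Plcg2 (-0.07, adjusted p = 0.748 by edgeR) lay below 0. Gp6, for the collagen receptor GPVI, had 444 ± 11.1 CPM in mutant pools and 333 ± 31.5 CPM in wild-type pools (0.42, adjusted p = 0.0105 by edgeR), and Clec1b, for CLEC-2, had 2637 ± 200.5 CPM in mutant pools and 2607 ± 262 CPM in wild-type pools (0.02, adjusted p = 0.941 by edgeR). The kinase genes Src (1.19, adjusted p = 1.52e-06) and Syk (0.47, adjusted p = 0.00287), the exchange factor gene Vav1 (0.70, adjusted p = 0.00016) and Fcer1g, for the signalling chain of GPVI (0.45, adjusted p = 0.00508 by edgeR), also rose. Without mutant day 2 or without days 1 or 2 the calls of Gp6, Syk and Fcer1g were lost (adjusted p of 0.0648 to 0.176 by edgeR), and that of Gp6 also without mutant day 1 (0.0913) or wild-type day 1 (0.0673). The list had 4 members called higher without mutant day 1, 5 without wild-type day 1, and 2 without mutant day 2, without day 1 or without day 2. Calls were lost well beyond this list, since in these fits the genes called higher fell from 1266 to between 485 and 903.

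**Figure D5:**
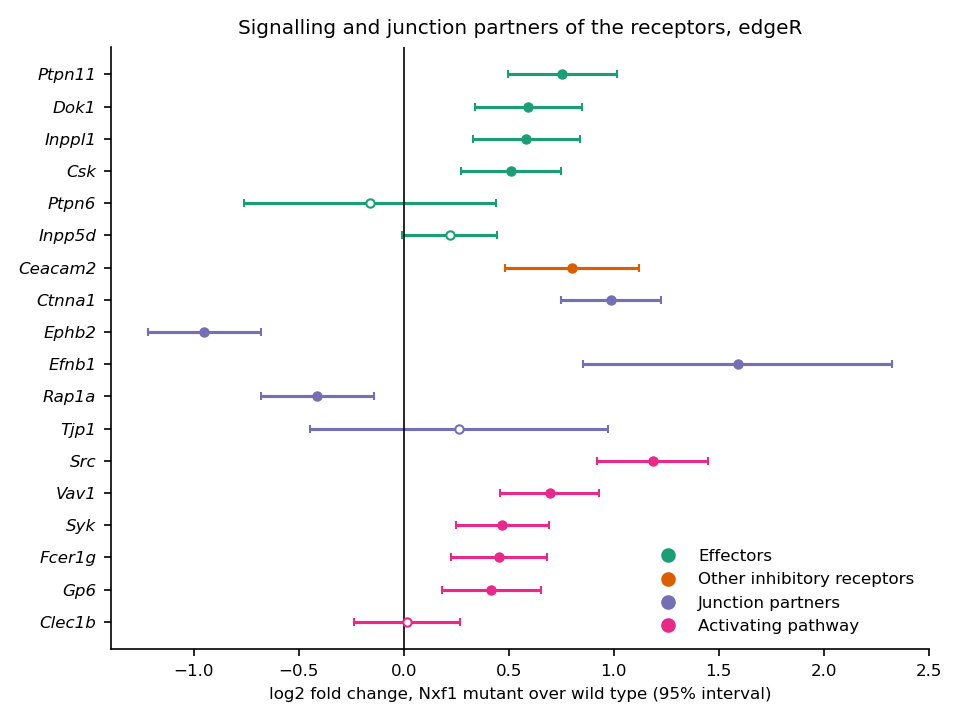
Log2 fold change, Nxf1 mutant over wild type, with its 95% interval by edgeR, of the named partner genes, coloured by list. Filled points passed the test and open points did not. Src and Efnb1 lie farthest to the right (1.19 and 1.59), Ephb2 farthest to the left (-0.95), and Clec1b sits at 0.02. Efnb1 is in the tables only through the mutant libraries where it was high, so its point carries no weight.

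Some of these receptors are also made by endothelial cells, such as Pecam1, Esam and F11r, or by leukocytes, such as Pecam1, Ceacam1, Cd84 and F11r. These are examples and not a full list. Markers of these cells were therefore read in the same libraries. B cell markers, 12 of 12 with a row, summed to 281 to 352 CPM in mutant pools and 359 to 481 CPM in wild-type libraries. By edgeR 5 of them were lower and 0 higher, where 9.16% of all genes were lower and 12.9% higher. T and NK cell markers, 11 of 12 with a row, summed to 19.9 to 24.3 CPM in mutant pools and 21.9 to 29.7 CPM in wild-type libraries, and neutrophil markers, 5 of 12, to 14.8 to 22.5 CPM in mutant pools and 14.7 to 19.7 CPM in wild-type libraries. The B cell sum lay above the level of Ceacam1 and of F11r in every library. The defining neutrophil markers Ngp, Camp, Ltf, Elane, Mpo, Cxcr2 and Lcn2 and the T cell marker Cd3e had no row.

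Monocyte and macrophage markers, 9 of 12 with a row, summed to 1797 to 2111 CPM in mutant pools and 1193 to 1637 CPM in wild-type libraries, nearly all of it Lyz2, which had 1913 CPM in mutant pools and 1358 CPM in wild-type pools (log2 fold change 0.49, adjusted p = 0.00935 by edgeR). In this list 1 marker was higher, Lyz2, and 3 were lower, Fcgr1 (-0.67, adjusted p = 0.000406), Ly6c2 (-0.76, adjusted p = 0.0307) and Mpeg1 (-0.54, adjusted p = 0.0401 by edgeR). The shares over all genes were 12.9% higher and 9.16% lower. Csf1r had 1.48 CPM in mutant pools and 1.36 CPM in wild-type pools. Endothelial markers, 7 of 12 with a row, summed to 389 to 476 CPM in mutant pools and 290.4 to 382 CPM in wild-type libraries, with 2 higher, Tie1 (0.69, adjusted p = 0.000279) and Plvap (0.39, adjusted p = 0.0187 by edgeR), and 0 lower. The call of Lyz2 was lost in 4 of 20 alternatives (adjusted p up to 0.146 by edgeR) and that of Plvap in 6 of 21 (up to 0.187), all of them with 1 library or day left out. Most of that sum was Tal1, at 301 CPM in mutant pools and 248 CPM in wild-type pools, a gene of the megakaryocyte lineage too, while Cdh5, the endothelial cadherin, had 2.65 CPM in mutant pools and 1.78 CPM in wild-type pools, and Tek, Emcn, Cldn5, Robo4 and Erg had no row. The part of other cells in the receptor values was not tested, and in pooled RNA more cells of a type and more RNA per cell cannot be told apart.

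The transcripts that followed each receptor most closely over the 6 libraries are given as a description, since these points share genotype and day. Cd84 went most with Slamf1, its SLAM family relative, at r = 0.999 on the log2(CPM + 1) scale among 2841 genes of at least 10 CPM, and next with Rab18 at 0.998. Ceacam1 went with Nipal3 and As3mt (0.999 each), Mpig6b with Dgkg (0.997) and Copz1 (0.992), and Pecam1 with Fundc1 (0.998) and Prkcq (0.997). Pear1 went with Anxa11 (0.998), Esam with Mycbp (0.997), and Treml1 with Tmem134 (0.996) and Rer1 (0.995). The closest to F11r were Adgre5 (0.984) and Lonp2 (0.977), the lowest values among the 8 receptors.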

How the data were processed

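The authors deposited unnormalized counts for Entrez genes, beside a length for every gene (per the file headers). The submitters' processing notes name mm10 and the tools featureCounts, Subread and CASAVA 1.8.2, while the sources used here give no settings and no account of strand or multimapped reads. Each of the 9822 genes listed exceeds 0.5 CPM in 3 or more libraries, and 9636 were named from RefSeq (GRCm38.p6), which gave coordinates. Counts were fitted with edgeR 4.0.16 in R 4.3.3 (TMM, robust quasi-likelihood, genotype as the only term, two-sided); filterByExpr removed 0 genes. DESeq2 1.42.0, limma-voom (limma 3.58.1), other scalings, filters, each library or day left out and the day as a block were alternatives; the blocked fit without day 1 was added after seeing the data. The fits were tested on simulated data. The SE is the log2 fold change divided by the square root of F.

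The labels number the batches 1 to 3, which are taken as the 3 preparation days of the design text, and so pair the libraries. Deviations from genotype means correlated at 0.58, 0.408 and 0.589 within days and at -0.482 to -0.061 between days. The deviations of a gene cancel out within a genotype, so positive values within days force negative ones between days. The between-day values therefore add nothing on the pairing. Members and lists were chosen with earlier results of these data known. Named partners were up to 4 called genes of smallest p per list and the direct partners of the receptors. Ptprj, Treml2, Slamf1, Lyz2, Fcgr1, Ly6c2, Mpeg1, Btk and Plcg2 were added after their values were seen. So were Tie1, Plvap, Tal1, Csf1r, Cdh5, Gp1ba, Gp9 and Hba-a1. The 2 genes most like each receptor over the libraries were named, except that 1 each for Pear1 and Esam is not reported here.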

Additional observations from a re-analysis of the deposited data

How the results depend on the processing

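All 8 receptor log2 fold changes kept their sign in the 21 alternatives, and Ceacam1 kept its call in all of them. Against 3 receptors higher and 0 lower, 5 were higher with library size alone, 7 with the preparation day as a replicate block by edgeR and 7 by DESeq2, and 1 was lower when the fit kept genes averaging 10 CPM or more, namely F11r. With 1 library or day left out, 1 to 6 receptors were higher and 0 lower. That filter re-estimated the scaling and shifted the log2 fold changes of shared genes by -0.16 at the median, and those of the 8 receptors by -0.17 to -0.16, so relative to other genes they held their place. Of the 3021 genes that this filter left, 725 were higher and 756 lower. From the 9822 genes, blocked DESeq2 called 1572 up and 912 down. Scaling by library totals only gave 956 genes up and 909 down. Over all genes, there were 2164 higher and 1765 lower with the block by edgeR, 1417 lower with the block without day 1, and 485 to 1387 higher and 520 to 1002 lower with 1 library or day left out, against 1266 higher and 900 lower. The share of higher among called genes, 58.4%, was 49% under that filter, 47.4% without mutant day 1 and 47.3% without mutant day 2. Among genes that did not pass, the sign turned for Treml2 (-0.022) and Clec1b (-0.15) under that filter, for Clec1b with upper-quartile factors (-0.028), library size alone (-0.061), without the 10 most abundant genes (-0.029), without erythroid and leukocyte markers (-0.021) and with the block without day 1 (-0.046), for Tjp1 with the block without day 1 (-0.13), and in fits with 1 library or day left out for Clec1b (-0.085 to 0.070), Tjp1 (-0.15 to 0.83) and Ptpn6 (-0.40 to 0.14). The cause was not tested. The blocked fit leaves few residual degrees of freedom per gene, so its calls lean on the variance pooled over genes. The SLAM family had 1 higher and 0 lower with the block, and the other genes listed as inhibitory receptors 1 higher and 2 lower. For the remaining partner lists these counts are given beside each.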
